A study of Mus musculus with 12 samples.

Results

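The genes described here were 8 neurotrophic factors and receptors, taken by name from the expression table: the ligands Bdnf, Ntf3 and Gdnf, the receptors Ntrk2, Ntrk3 and Ngfr for the neurotrophins, and Gfra1 and Ret for GDNF. All 8 of the 24340 rows chosen by name were above 0 in at least 1 library, and 7 passed a minimum of 1 FPKM (fragments counted per kilobase of exon and scaled to the depth of the library) in 3 or more libraries, the exception being Gdnf. Libraries were made from the left and right retinas of 6 p16-3MR mice, aged 12 to 16 weeks, on day 3 after intraocular pressure (IOP) had been raised in one eye to 85 to 90 mm Hg for 60 min, while the other eye was left as the control. All the mice carried the p16-3MR transgene, whose product joins a luciferase, a red fluorescent protein and a viral thymidine kinase. Control sequences of p16Ink4a drive it, and the kinase turns ganciclovir (GCV) into a toxin meant to kill selectively the cells that express it. Mice 3, 4 and 6 received saline (groups ctrl and IOP), and mice 1, 2 and 5 received daily GCV at 25 mg/kg (groups ctrl-GCV and IOP-GCV), which gave 4 groups of 3 retinas. No group without the transgene was sequenced, so that an action of GCV itself cannot be told apart from the removal of p16Ink4a-positive cells.

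Neurotrophins are secreted as precursors, cut to their mature form, and bind Trk receptor tyrosine kinases, BDNF preferring TrkB (encoded by Ntrk2) and NT-3 preferring TrkC (encoded by Ntrk3), while p75NTR (encoded by Ngfr) binds all of them and the precursors as well. GDNF binds the membrane-anchored co-receptor GFRα1, and the complex activates the kinase RET. Retinal ganglion cells, whose axons form the optic nerve, take up BDNF made in the retina and in their brain targets, and in the retina TrkB is also made by Müller glia and amacrine cells.

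Bdnf (chr2:109674700-109727043, mm10) had 11 annotated transcripts, Ntrk2 (chr13:58806472-59133970) had 10 and Ntrk3 (chr7:78179986-78581034) had 20, of which 7 and 6 were protein-coding for the receptors. The table holds 1 value per gene, so that full-length and truncated TrkB or TrkC were not separated. Ntf3 lies at chr6:126101412-126166772, Gdnf at chr15:7810048-7837580, Ngfr at chr11:95568818-95587698, Gfra1 at chr19:58235581-58455946 and Ret at chr6:118151748-118197744. Antisense genes overlap Bdnf, Gfra1, Ntrk2 and Ntrk3 in the annotation. The libraries were made with a stranded kit, but whether strand was used in counting is not given in the sources used here.

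Sequence upstream of start sites is shown for the ligand Bdnf and for both of its receptors, Ntrk2 and Ngfr, which were lower in the IOP-treated eye of at least 5 of 6 mice as described below, with matches to motifs in capitals. The sequences are RefSeq promoter windows (mm10), cut where an annotated exon began. Bdnf has several alternative first exons, and the first stretch lies at the start of the gene (chr2:109674450-109674699, plus strand) and the second before a downstream first exon (chr2:109692186-109692435, plus strand). Ngfr is given at chr11:95587736-95587948 (minus strand) and Ntrk2 at chr13:58806319-58806471 (plus strand).
Bdnf, first start: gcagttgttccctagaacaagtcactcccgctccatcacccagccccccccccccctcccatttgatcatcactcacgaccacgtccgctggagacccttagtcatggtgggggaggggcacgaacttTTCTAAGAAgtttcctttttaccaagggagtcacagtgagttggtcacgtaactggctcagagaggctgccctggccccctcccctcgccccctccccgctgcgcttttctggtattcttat
Bdnf, downstream start: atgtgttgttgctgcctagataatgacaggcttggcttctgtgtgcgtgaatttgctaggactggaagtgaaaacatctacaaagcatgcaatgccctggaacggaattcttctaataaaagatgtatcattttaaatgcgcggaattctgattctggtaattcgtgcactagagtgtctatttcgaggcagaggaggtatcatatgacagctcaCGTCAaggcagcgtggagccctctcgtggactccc
Ngfr: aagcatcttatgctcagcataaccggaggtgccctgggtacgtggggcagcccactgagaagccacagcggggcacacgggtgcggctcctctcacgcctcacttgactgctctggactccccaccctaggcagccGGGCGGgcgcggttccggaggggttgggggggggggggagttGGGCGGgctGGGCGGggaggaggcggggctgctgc
Ntrk2: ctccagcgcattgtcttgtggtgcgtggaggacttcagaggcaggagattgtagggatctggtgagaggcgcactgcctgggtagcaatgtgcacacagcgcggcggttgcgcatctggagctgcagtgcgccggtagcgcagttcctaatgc
The motifs searched, on both strands, were the core of the cAMP response element (TGACG), the STAT element (TTCNNNGAA), the E-box (CACGTG) and the GC box (GGGCGG). The downstream Bdnf stretch held the cAMP core on the minus strand, where it reads CGTCA along the printed strand, and the first held a STAT element. These were picked from 7 Bdnf windows because they held these motifs, and of the 5 not shown, 2 held only GC boxes and 3 held none of the 4 motifs. Ngfr held 3 GC boxes and Ntrk2 held none of the 4 motifs. Of 32851 promoter windows of 250 bases, 17.8% held the cAMP core, 7.02% the STAT element, 6.02% the E-box and 32.7% the GC box. These were searched whole, without cutting exons, while the Ngfr and Ntrk2 stretches were shorter, at 213 and 153 bases. A match describes the letters of these windows only.

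Because the table gives no counts, depth was estimated from the spacing of low values in genes annotated with 1 transcript, and came to 3980000 fragments in the IOP retina of mouse 6 and 6860000 to 9030000 in the others. Of the 14 retinal ganglion cell markers none was at 0 in all libraries, and rod, bipolar, amacrine and Müller glia markers were present, as the label retina says. The summed level of ganglion cell markers was 1030 to 1300 FPKM in ctrl, 272 to 1160 in IOP, 1280 to 2080 in ctrl-GCV and 447 to 848 in IOP-GCV retinas. Markers of microglia summed to 71.9 to 115 FPKM over both groups of control retinas and to 277 to 586 over both groups of IOP-treated retinas. Lens, pigment epithelium and anterior segment markers summed to 103 to 182 FPKM in ctrl, 267 to 4440 in IOP, 128 to 6640 in ctrl-GCV (the highest in mouse 1) and 2910 to 5650 in IOP-GCV retinas. Their part in the results below was not tested.

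Of the 8 genes, Ntrk2 and Ngfr had the highest levels in the retina, at means of 9.43 and 9.32 FPKM over the 12 libraries, and Gfra1 (6.17) and Ret (5.47) followed. Ntrk3 (2.66) and Bdnf (2.38) were lower, Ntf3 was at 0.583 and Gdnf at 0.0524 FPKM. The ligands therefore stood below the receptors that bind them, with Bdnf at 39.3% and Ntrk2 at 62.3% of the way up the ranked means of all 18509 rows above 0 in a library.

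Bdnf, the main ligand of TrkB, had levels of 2.46, 2.21 and 3.09 FPKM in the ctrl retinas of mice 3, 4 and 6 and 1.18, 2.08 and 1.05 FPKM in their IOP retinas. In the mice with GCV it was at 2.61, 4.20 and 3.70 FPKM in ctrl-GCV and 2.57, 2.03 and 1.35 FPKM in IOP-GCV retinas of mice 1, 2 and 5. Every IOP-treated retina lay below every control retina of the same treatment, though by little in mice 1 and 4, and the IOP-treated retinas of the mice with GCV overlapped the ctrl retinas of the mice without. Group means were 2.59 ± 0.454 (SD, n = 3) in ctrl, 1.44 ± 0.562 in IOP, 3.5 ± 0.815 in ctrl-GCV and 1.98 ± 0.614 FPKM in IOP-GCV. In the order of the means, ctrl-GCV stood above ctrl, IOP-GCV and IOP, and each neighbour in that order differed by less than the sum of the SDs.

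**Figure D1:**
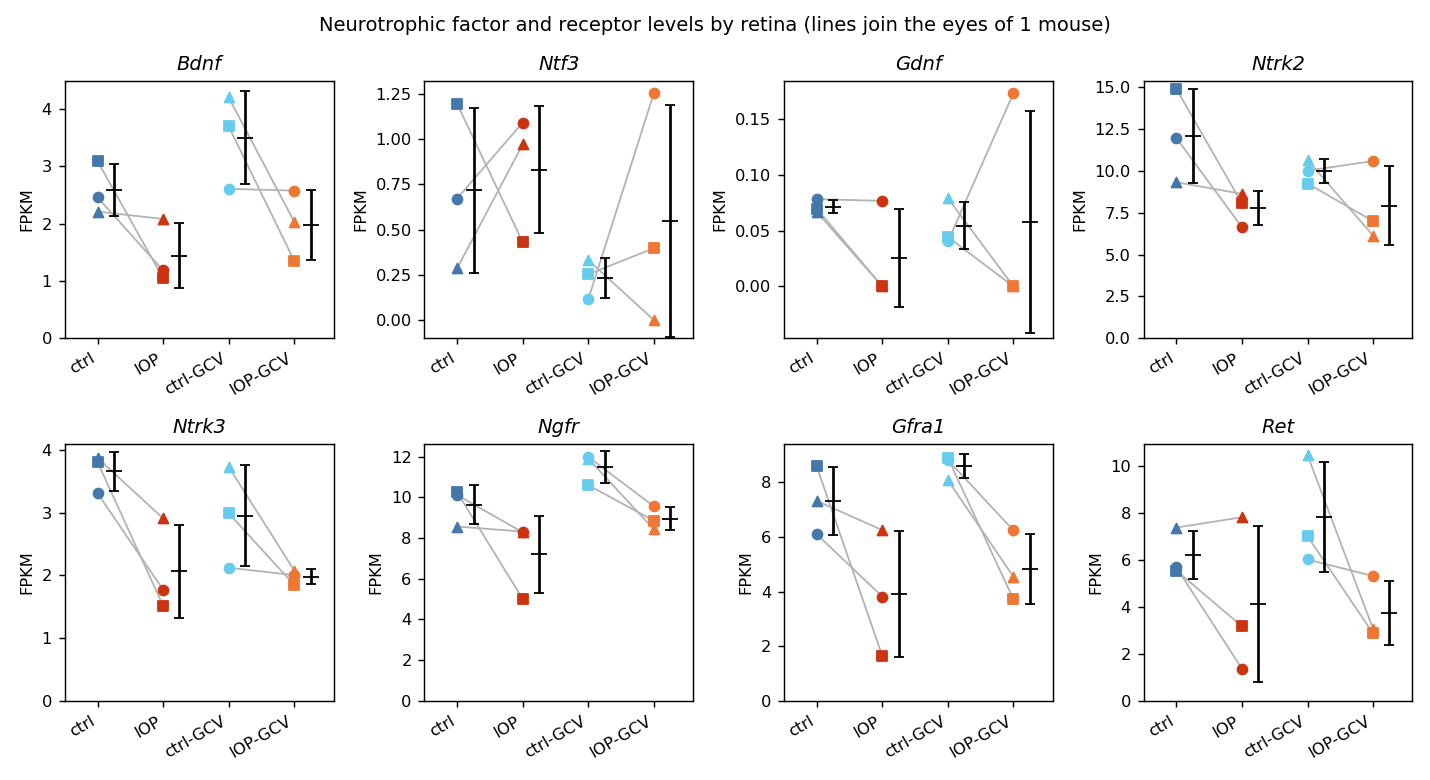
Level of each gene in every retina (y axis, FPKM) for the 4 groups (x axis), with grey lines joining the eyes of 1 mouse (circles, mice 3 and 1; triangles, mice 4 and 2; squares, mice 6 and 5) and black bars giving the mean and SD of 3 retinas. Bdnf, Ntrk3, Ngfr and Gfra1 were lower in the IOP-treated eye of 6 of 6 mice, and Ntf3 was lower in 2 of 6.

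Ntf3, which encodes NT-3, was at 0.672, 0.286 and 1.20 FPKM in ctrl and 1.09, 0.971 and 0.430 FPKM in IOP retinas. With GCV it was at 0.115, 0.331 and 0.253 FPKM in control and 1.25, 0 and 0.397 FPKM in IOP-treated retinas. These levels overlapped between the eyes in both sets of mice and rested on few fragments, at most an estimated 13.6 in a library.

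Gdnf, the ligand of GFRα1 and RET, was near the limit of detection, at 0.0783, 0.0668 and 0.0698 FPKM in ctrl and 0.0768, 0 and 0 FPKM in IOP retinas. With GCV it was at 0.0404, 0.0791 and 0.0443 FPKM in control and 0.173, 0 and 0 FPKM in IOP-treated retinas. It was listed at 0 in 4 of 12 libraries, and its highest value corresponded to an estimated 4.9 fragments, so that a difference between groups was not detectable at this depth.

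Ntrk2, the receptor of BDNF, was at 12.0, 9.33 and 14.9 FPKM in ctrl and 6.64, 8.63 and 8.06 FPKM in IOP retinas of mice 3, 4 and 6. In mice 1, 2 and 5 it was at 10.0, 10.7 and 9.25 FPKM in ctrl-GCV and 10.6, 6.13 and 7.0 FPKM in IOP-GCV retinas. Without GCV the groups did not overlap, and with GCV the IOP-treated retina of mouse 1 lay among the controls. Group means were 12.1 ± 2.79, 7.78 ± 1.02, 9.98 ± 0.710 and 7.91 ± 2.36 FPKM for ctrl, IOP, ctrl-GCV and IOP-GCV (SD, n = 3), and neighbours in their order differed by less than the sum of their SDs.

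Ntrk3, the receptor of NT-3, was at 3.31, 3.87 and 3.81 FPKM in ctrl and 1.77, 2.91 and 1.52 FPKM in IOP retinas. With GCV it was at 2.12, 3.73 and 2.99 FPKM in control and 2.0, 2.08 and 1.85 FPKM in IOP-treated retinas. The groups did not overlap in either set of mice, and the eyes of mouse 1 differed least. Group means, in the order ctrl, ctrl-GCV, IOP and IOP-GCV, were 3.66 ± 0.307, 2.95 ± 0.806, 2.07 ± 0.741 and 1.98 ± 0.118 FPKM, and no neighbours in this order differed by more than the sum of their SDs.

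Ngfr, which encodes p75NTR, was at 10.1, 8.57 and 10.3 FPKM in ctrl and 8.28, 8.32 and 5.01 FPKM in IOP retinas. With GCV it was at 12.0, 11.9 and 10.6 FPKM in control and 9.56, 8.43 and 8.85 FPKM in IOP-treated retinas. The groups did not overlap in either set of mice, and the lowest level was that of the library with the fewest fragments, the IOP retina of mouse 6. The mean of 11.5 ± 0.775 FPKM in ctrl-GCV retinas exceeded that of ctrl (9.65 ± 0.936) by more than the sum of the SDs, while IOP-GCV (8.95 ± 0.572) and IOP (7.2 ± 1.9) followed within that spread.

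Gfra1, the co-receptor of GDNF, was at 6.10, 7.32 and 8.58 FPKM in ctrl and 3.82, 6.25 and 1.64 FPKM in IOP retinas. With GCV it was at 8.82, 8.08 and 8.89 FPKM in control and 6.24, 4.54 and 3.71 FPKM in IOP-treated retinas. Without GCV the IOP retina of mouse 4 lay just above the ctrl retina of mouse 3, and with GCV the groups did not overlap. Means ran from 8.59 ± 0.45 FPKM in ctrl-GCV over 7.33 ± 1.24 in ctrl and 4.83 ± 1.29 in IOP-GCV to 3.9 ± 2.31 in IOP retinas, each step smaller than the sum of the SDs.

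Ret, the kinase of the GDNF receptor, was at 5.68, 7.37 and 5.54 FPKM in ctrl and 1.37, 7.81 and 3.17 FPKM in IOP retinas. With GCV it was at 6.01, 10.4 and 7.0 FPKM in control and 5.31, 3.06 and 2.87 FPKM in IOP-treated retinas. Without GCV the highest of all 6 retinas was the IOP retina of mouse 4, and with GCV the groups did not overlap. Means ran from 7.82 ± 2.33 FPKM in ctrl-GCV over 6.19 ± 1.02 in ctrl and 4.12 ± 3.32 in IOP to 3.74 ± 1.36 in IOP-GCV retinas, again with steps smaller than the sum of the SDs.

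The comparison of IOP-treated with control retinas asked how these genes differed after the pressure procedure. Pressure was raised by infusing balanced salt solution into the anterior chamber, and the other eye was left untreated. No sham-infused eye was sequenced, so pressure cannot be told apart from the infusion. The paper calls this level likely an ischemic insult. Over all 6 pairs of eyes the mean of the IOP-treated retinas was 56.2% of the control mean for Bdnf, 54.8% for Gfra1, 56.1% for Ret, 61.1% for Ntrk3, 71.1% for Ntrk2 and 76.4% for Ngfr, while it was 145% for Ntf3 and 66.1% for Gdnf, both of which rested on few fragments. Differences were tested with limma on log2(FPKM + 1), a scale that understates the change of low genes, with adjustment over all 18509 rows. With the effects in mice with and without GCV averaged, 3 of the 8 genes fell at an adjusted p under 0.05 when the eyes of a mouse were treated as independent retinas, where 12.2% of all rows were called and 5.44% were called lower and 6.76% higher. Bdnf had a log2 difference of -0.59 (SE 0.16, limma adjusted p = 0.0435), Ntrk3 of -0.51 (SE 0.14, adjusted p = 0.0467) and Gfra1 of -0.81 (SE 0.22, adjusted p = 0.0438). With the mouse as a block, which pairs the eyes of an animal, none of the 8 was called, where 7.3% of all rows were, and the limma adjusted p was 0.104 for Bdnf, 0.0758 for Ntrk3 and 0.0783 for Gfra1.

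The remaining receptors were not called either way. Ret had a log2 difference of -0.79 (SE 0.29) with limma adjusted p = 0.0969, and 0.101 with the mouse as a block. Ntrk2 had a log2 difference of -0.45 (SE 0.15) with limma adjusted p = 0.0691, and 0.109 with the block. Ngfr had one of -0.37 (SE 0.12) with limma adjusted p = 0.0703, and 0.129 with the block. The ligands Ntf3 (0.18, 95% interval -0.27 to 0.63) and Gdnf (-0.03, 95% interval -0.13 to 0.07) had intervals that included 0. In all, 6 of 8 genes had an unadjusted limma p under 0.05 in this comparison, where 30.3% of all rows did (16.1% lower), and the median log2 difference of the 8 was -0.48 against 0.01 over all rows.

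The calls also depended on single libraries. None of the 8 genes was called when any of these retinas was left out: ctrl of mouse 3, 4 or 6, IOP of mouse 3, ctrl-GCV of mouse 2 or 5, or IOP-GCV of mouse 2 or 5. In these 8 fits 4.26% to 10.3% of all rows were called. Without the IOP retina of mouse 6 or the ctrl-GCV retina of mouse 1 a single gene was called (10.1% and 5.83% of all rows), and without the IOP-GCV retina of mouse 1 the count was 3 (11.2%). Without the IOP retina of mouse 4 it was 5, where 24.3% of all rows were called, and without both eyes of mouse 4, a choice made after the data had been seen, it was 6, where 17.2% were. Without both eyes of any other mouse it was 0 (2.32% to 5.61% of all rows). The calls over the whole table thus rose as well when the IOP retina of mouse 4 was left out.

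**Figure D2:**
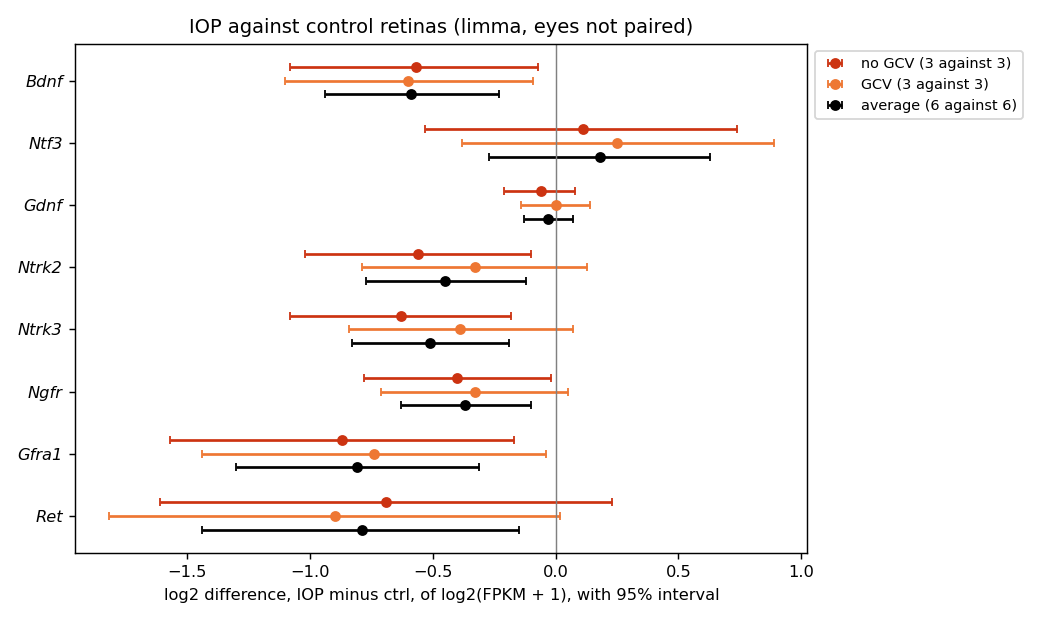
Difference between IOP-treated and control retinas on the log2(FPKM + 1) scale (x axis) for each gene (y axis), with the 95% interval from limma, in mice without GCV, with GCV and averaged. All intervals of Ntf3 and Gdnf included 0, and the averaged intervals of the other 6 genes lay below 0, where 3 passed the adjusted threshold with the eyes unpaired.

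In the mice without GCV none of the 8 genes was called at an adjusted p under 0.05, where 1.65% of all rows were, and 5 had an unadjusted limma p under 0.05 (18.9% of all rows). The IOP retinas lay under all ctrl retinas for 4 of 8 genes, Bdnf, Ntrk2, Ntrk3 and Ngfr, as they did for 8.81% of all rows. The log2 differences were -0.57 for Bdnf, -0.56 for Ntrk2, -0.63 for Ntrk3, -0.40 for Ngfr, -0.87 for Gfra1 and -0.69 for Ret, with limma adjusted p between 0.176 (Ntrk3) and 0.375 (Ret). Without the IOP retina of mouse 4, Ntrk3, Gfra1 and Ret were called, at limma adjusted p of 0.0244, 0.0240 and 0.0427, in a fit that called 13.1% of all rows. With libraries or mice left out, 1 to 2432 rows were called in this comparison, against 306 with all. Without the IOP retina of mouse 6 the log2 difference was -0.19 for Ngfr and -0.48 for Gfra1, and for Ret it was -0.24 when mouse 3's IOP library was left out and -1.18 when it was mouse 4's.

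In the mice with GCV none was called either, where 1.8% of all rows were, and 2 had an unadjusted limma p under 0.05 (19.2% of all rows). The IOP-GCV retinas lay under all ctrl-GCV retinas for 5 of 8 genes, Bdnf, Ntrk3, Ngfr, Gfra1 and Ret, as they did for 15.3% of all rows. The log2 differences were -0.60 for Bdnf, -0.33 for Ntrk2, -0.39 for Ntrk3, -0.33 for Ngfr, -0.74 for Gfra1 and -0.90 for Ret, with limma adjusted p between 0.195 (Bdnf) and 0.426 (Ntrk2). The value of Ntrk2 was -0.54 when the IOP-GCV library of mouse 1 was left out and -0.19 when it was mouse 2's, and that of Ntrk3 was -0.25 without the ctrl-GCV retina of mouse 2.

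Whether GCV altered the response was tested as the difference between these effects. None of the 8 genes was called, as was none of all rows (0%), and none of the 8 had an unadjusted limma p under 0.05, where 1.93% of all rows did. The estimates had wide intervals, from -0.74 to 0.70 for Bdnf, from -0.42 to 0.87 for Ntrk2, from -0.40 to 0.88 for Ntrk3, from -0.86 to 1.12 for Gfra1 and from -1.51 to 1.09 for Ret on the log2 scale. For each of these 5 genes the interval included a difference equal and opposite to the IOP effect without GCV.

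Between mice, IOP-GCV retinas were compared with IOP retinas and ctrl-GCV with ctrl retinas. No gene of the 8 was called in either (0% of all rows in both), and none had an unadjusted limma p under 0.05, against 4.18% and 1.59% of all rows. The largest difference between control retinas was that of Ntf3, at -0.45 with GCV (95% interval -1.08 to 0.19), and among IOP-treated retinas those of Gfra1 at 0.34 (-0.36 to 1.05) and Ngfr at 0.31 (-0.07 to 0.68). With a library left out, that of Ntf3 was -0.64 to -0.25, the latter without the ctrl retina of mouse 6. Without the IOP retina of mouse 6, the values of Gfra1 and Ngfr were -0.043 and 0.095, and over all such fits they reached 0.685 and 0.412.

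The eyes of the same mouse were also set side by side. Bdnf, Ntrk3, Ngfr and Gfra1 were lower in the IOP-treated eye of 6 of 6 mice, as were 10.1% of all rows, and Ntrk2 and Ret in 5 of 6. No gene of the 8 had all 6 IOP-treated retinas under all 6 control retinas, as 2.44% of all rows did. These shares, like those of rows without overlap above, are over all 18509 rows. Of these rows 12910 had a mean of at least 1 FPKM, and the shares among them are not given here. Ntf3 was lower in 2 and Gdnf in 5 of 6, but both rested on few fragments. In mouse 3 the Gdnf values stood for an estimated 2.15 fragments in the control and 2.14 in the IOP retina.

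The size of the change varied between mice. In 5 of the 8 genes (Bdnf, Ntrk2, Ntrk3, Gfra1 and Ret), the eyes of mice 1 and 4 differed least. Ret changed by 0.07 in mouse 4 and -0.15 in mouse 1 on the log2 scale, and by -1.49, -0.65, -1.50 and -1.05 in mice 3, 6, 2 and 5. Bdnf changed by -0.06 and -0.01 in mice 4 and 1, and by -0.66 to -1.0 in the others. Gfra1 had its largest change in mouse 6, at -1.86, whose IOP library was the thinnest and held an estimated 29.2 fragments of this gene.

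**Figure D3:**
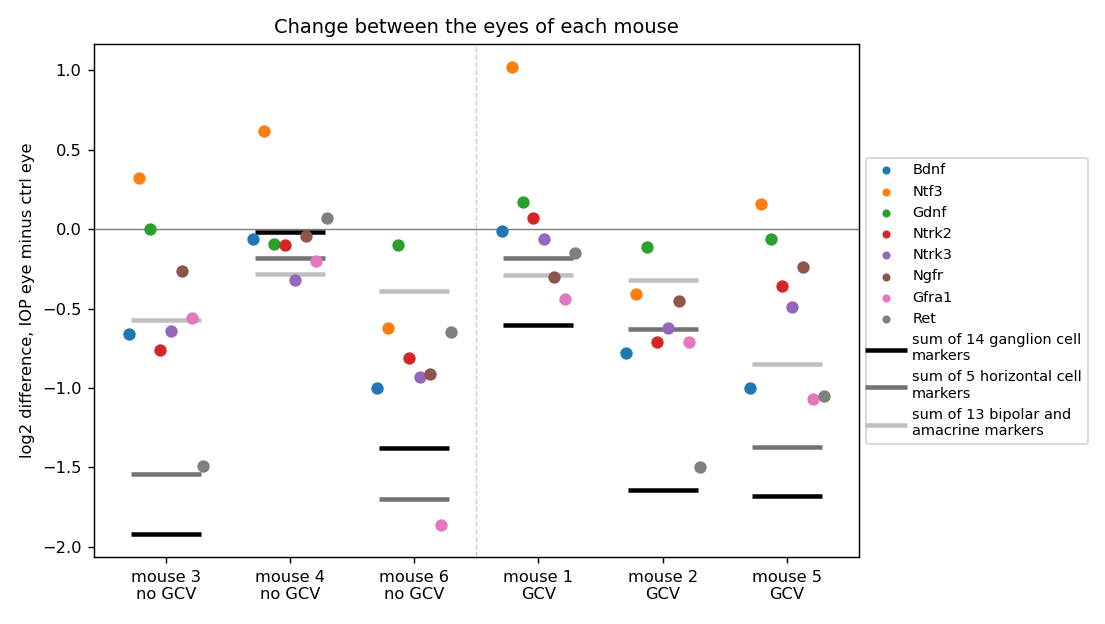
Change of each gene between the eyes of a mouse (y axis, log2 difference of FPKM + 1) for 6 mice (x axis), with bars for the log2 change in the summed FPKM of 14 ganglion cell markers (black), 5 horizontal cell markers (dark grey) and 13 bipolar and amacrine markers (light grey). The black bar stood at -0.02 in mouse 4 and -0.60 in mouse 1 and between -1.38 and -1.92 in the other 4 mice, the dark grey bar at -0.18 in mice 4 and 1 and between -0.63 and -1.70 in the others, and 5 of the 8 genes had their smallest changes in mice 4 and 1.

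The summed ganglion cell markers changed by -0.02 in mouse 4 and -0.60 in mouse 1 on the log2 scale, against -1.92, -1.38, -1.64 and -1.68 in mice 3, 6, 2 and 5. Of the 14 markers, 14 were lower in the averaged comparison and 10 were called, 3 with the mouse as a block, at a median log2 difference of -1.15. Over all rows 48.1% were lower, 12.2% were called (5.44% lower) and 7.3% were called with the block. The marker counts that follow stand against these shares as well where all libraries were used. The summed horizontal cell markers changed by -0.18 in both mice 1 and 4, and by -1.54, -1.70, -0.63 and -1.37 in mice 3, 6, 2 and 5. The summed bipolar and amacrine markers changed by -0.28 in mouse 4 and -0.29 in mouse 1, and by -0.57, -0.39, -0.32 and -0.85 in the other mice in that order. Of the 13 bipolar and amacrine markers 12 were lower in the averaged comparison and 5 were called, 4 with the block, and of the 5 horizontal cell markers 5 were lower and 1 was called, also with the block. These calls rested on single libraries. With the IOP retina of mouse 4 left out, 12 ganglion cell, 8 bipolar and amacrine and 5 horizontal cell markers were called, where 24.3% of all rows were. With the IOP-GCV retina of mouse 1 left out, these counts were 7, 5 and 1, where 11.2% of all rows were called. With any of the other 10 libraries left out, they were 1 to 4, 1 to 2 and 0, where 4.26% to 10.3% of all rows were called. Pou4f3, a transcription factor of ganglion cells, and the glycine transporter gene Slc6a9 were called in 12 of 12 such fits, and the neurofilament gene Nefh in 10, while each of the other called markers of these 3 kinds was called in 1 to 4. Mice 1 and 4 thus had the smallest changes in each of these 3 sums, though by little for bipolar and amacrine markers. The summed rod markers did not follow this order, at -0.55 in mouse 4, -0.28 in mouse 1 and -0.41, -0.18, 0.30 and -0.43 in mice 3, 6, 2 and 5. Nor did the summed Müller glia markers, at -0.21 in mouse 4, -0.17 in mouse 1, -0.18 in mouse 2 and -0.38 to -0.93 in the others. Of the 10 Müller glia markers 8 were lower in the averaged comparison and 2, Glul and Rlbp1, were called, 1 with the block. With a library left out, Glul was called in 11 of 12 fits and Rlbp1 in 5. Summed markers of microglia were higher by 1.63 to 2.64, of infiltrating leukocytes by 3.69 to 5.92 and of reactive glia by 1.45 to 3.65 on the log2 scale in the IOP-treated eye of 6 of 6 mice. In the averaged comparison 8 of 10, 11 of 12 and 10 of 10 of these markers were called higher, and 7, 10 and 9 were called with the block. With a library left out, the counts were 7 to 8, 8 to 11 and 9 to 10, where 4.26% to 24.3% of all rows were called. In such bulk tissue fewer cells of a type and less RNA per cell cannot be told apart. The levels of the 8 genes and of the factors described below may include a part from such changes in cells. The part of fewer ganglion, horizontal, bipolar or amacrine cells or Müller glia was not tested. Nor was that of added immune cells and reactive glia.

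Ratios of levels within a library compare receptors in FPKM, which is per length. Ntrk3 to Ntrk2 was lower in the IOP-treated eye of 6 of 6 mice, with a median of 0.265 (0.188 to 0.339) in IOP-treated and 0.300 (0.212 to 0.415) in control retinas. The balance of p75NTR to TrkB, as Ngfr to Ntrk2, was higher in 4 of 6 mice, with medians of 1.11 in IOP-treated and 1.02 in control retinas and overlapping ranges. Bdnf to Ntrk2 was higher in 1 of 6 mice, and Gfra1 to Ret in 3 of 6. These ratios were not tested and the ranges overlapped in each case.

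Among 12910 genes averaging 1 FPKM or more, those whose log2 levels most resembled each of the 7 genes other than Gdnf, whose mean was too low, over the 12 libraries were named by Pearson's r, as a description over libraries that share mice and treatment. Ret was most like Slc17a6 (r = 0.98), the vesicular glutamate transporter that serves as a ganglion cell marker, followed by Psd3 and Unc13c. Bdnf was most like Nfe2l1 (r = 0.97), Gls2 and the neuronal tubulin Tubb3. Gfra1 was most like Sh3gl3, Stat5b and Fbxo44 (r = 0.97), Ntrk3 like Sema4c (r = 0.97), Ngfr like Tsnax (r = 0.95) and Ntrk2 like Fhdc1 (r = 0.92). Ntf3 was most like Hinfp (r = 0.89), Wfdc1 and Lrp5. Among themselves, Gfra1 was closest to Ngfr (r = 0.89) and Bdnf (r = 0.88), and Ntf3 stood apart from Bdnf (r = -0.11).

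The rest of the neurotrophin family gave 1 call among 9 genes reported in the averaged comparison, with the eyes unpaired, where 12.2% of all rows were called. Kidins220, a scaffold of Trk receptors, had a log2 difference of -0.31 (SE 0.09, limma adjusted p = 0.0484), and 0.0719 with the mouse as a block. It was called in 3 of 12 fits with a library left out. The abundant p75NTR partner genes Maged1 (-0.47, adjusted p = 0.0512) and Ngfrap1 (-0.23, adjusted p = 0.434) were not called by limma.

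Of the other GDNF family genes, 1 of 8 tested was called, a share near the 12.2% of all rows. Gfra2, the co-receptor of neurturin, had a log2 difference of -1.0 (SE 0.27, limma adjusted p = 0.0396), and 0.0527 with the mouse as a block, and it was called in 4 of 12 fits with a library left out. Its FPKM was 6.65, 8.17 and 7.04 in ctrl, 1.62, 5.90 and 4.90 in IOP, 8.39, 9.81 and 9.12 in ctrl-GCV and 4.61, 4.82 and 1.63 in IOP-GCV retinas, so that it was lower in the IOP-treated eye of 6 of 6 mice. Gfra4 was at -1.11 (SE 0.35, limma adjusted p = 0.0600), and the adhesion molecule Ncam1, which can also carry GDNF signals, was at 0.05. Gfral, the receptor of GDF15, was listed at 0 in all 12 libraries.

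Other neurotrophic factors of the retina moved in both directions. Of 27 genes, 6 rose and 4 fell in the averaged comparison, and 10 were called with the mouse as a block as well (12.2% of all rows with the eyes unpaired and 7.3% with the block). Fgf2, a growth factor of photoreceptors and Müller glia, rose by 2.99 (SE 0.33, limma adjusted p = 0.000833). It went from 3.92, 2.70 and 5.21 FPKM in ctrl to 44.97, 26.4 and 37.4 in IOP retinas. With GCV it went from 1.24, 1.73 and 3.58 FPKM in ctrl-GCV to 16.9, 14.8 and 57.3 in IOP-GCV retinas. Cntf, ciliary neurotrophic factor, rose by 1.40 (SE 0.16, adjusted p = 0.000848 by limma), and Osmr and Il6st, which encode receptor subunits of the same cytokine family, rose by 1.56 and 0.77. Osmr, which is also one of the reactive glia markers, Fgf2, Cntf and Il6st were called in mice without GCV (1.65% of all rows), where 2 of the 4 were called with the block (0.405% of all rows). Osmr, Cntf and Fgf2 were called in mice with GCV (1.8% of all rows), and all 3 with the block (0.778%). With a library left out, the calls held in 4, 1, 2 and 1 of 6 fits without GCV and in 6, 3 and 4 of 6 fits with GCV. Csf1 rose by 1.06 and Lif by 0.63, while Fgf1 (-1.67), Igf2 (-0.91), Cntfr (-0.91) and Ptn (-0.75) fell. The abundant Vegfb was at -0.42 and was not called (limma adjusted p = 0.134). Osmr, Fgf2, Cntf, Il6st, Csf1, Fgf1 and Igf2 were called in 12 of 12 fits with a library left out, while Lif and Ptn were called in 5 and Cntfr in 2.

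Genes of pro-neurotrophin processing, protease inhibitors included, gave 4 calls among the 15 genes reported, of which 2 were called with the block (12.2% and 7.3% of all rows). Plau, the plasminogen activator urokinase, rose by 1.17 (SE 0.25, limma adjusted p = 0.0174). Serpini1, the neuronal serpin, which inhibits proteases, had a log2 difference of -0.86 (limma adjusted p = 0.0225). Furin (0.27) and Pcsk6 (-0.67), which cut precursors, were called only with the eyes unpaired, at 0.127 and 0.0506 with the block in limma. With a library left out, Plau was called in 10 of 12 fits, Serpini1 in 6, Pcsk6 in 2 and Furin in 1. The abundant carboxypeptidase Cpe, which sorts pro-BDNF, was at -0.05.

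Downstream of the receptors, 3 of 32 adaptors and kinases of Trk and RET were called with the eyes unpaired and none with the block, where 12.2% and 7.3% of all rows were. Shc1 was at 0.55, Shc4 at -0.31 and Grb10 at -0.32, each called in 2 of 12 fits with a library left out, while the abundant kinase genes Mapk3 (0.06) and Akt1 (0.06) were not called. Of 17 partners of p75NTR and death signalling genes, 3 fell and were called with the block as well, against 12.2% of all rows called unpaired (5.44% lower) and 7.3% with the block: Bex1 by 0.76, the JNK3 gene Mapk10 by 1.23 and Ndn by 0.83 on the log2 scale. With a library left out these were called in 8, 3 and 2 of 12 fits. Rhoa, the abundant GTPase, was at 0.50 (limma adjusted p = 0.0534).

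Of 21 genes that ERK signals switch on or that damp it, 7 were called, 6 with the block, where 12.2% and 7.3% of all rows were. Junb rose by 2.06 (SE 0.23, limma adjusted p = 0.000833), Egr1 by 2.10, Nr4a1 by 1.1, Fos by 0.79 and Egr2 by 0.64. The ERK phosphatase gene Dusp4 had a log2 difference of -0.90 and the inhibitor gene Spred2 of -0.75 (0.0907 with the block). Junb was called in mice without and with GCV as well, with a block adjusted p of 0.0559 and 0.0298 in limma (0.405% and 0.778% of all rows called with the block), and it was called in 2 of 6 fits without and 5 of 6 with GCV when a library was left out. In the averaged comparison Junb and Egr1 were called in 12 of 12 such fits, Nr4a1 in 9, Fos in 7, Egr2 in 5, and Dusp4 and Spred2 in 2.

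**Figure D4:**
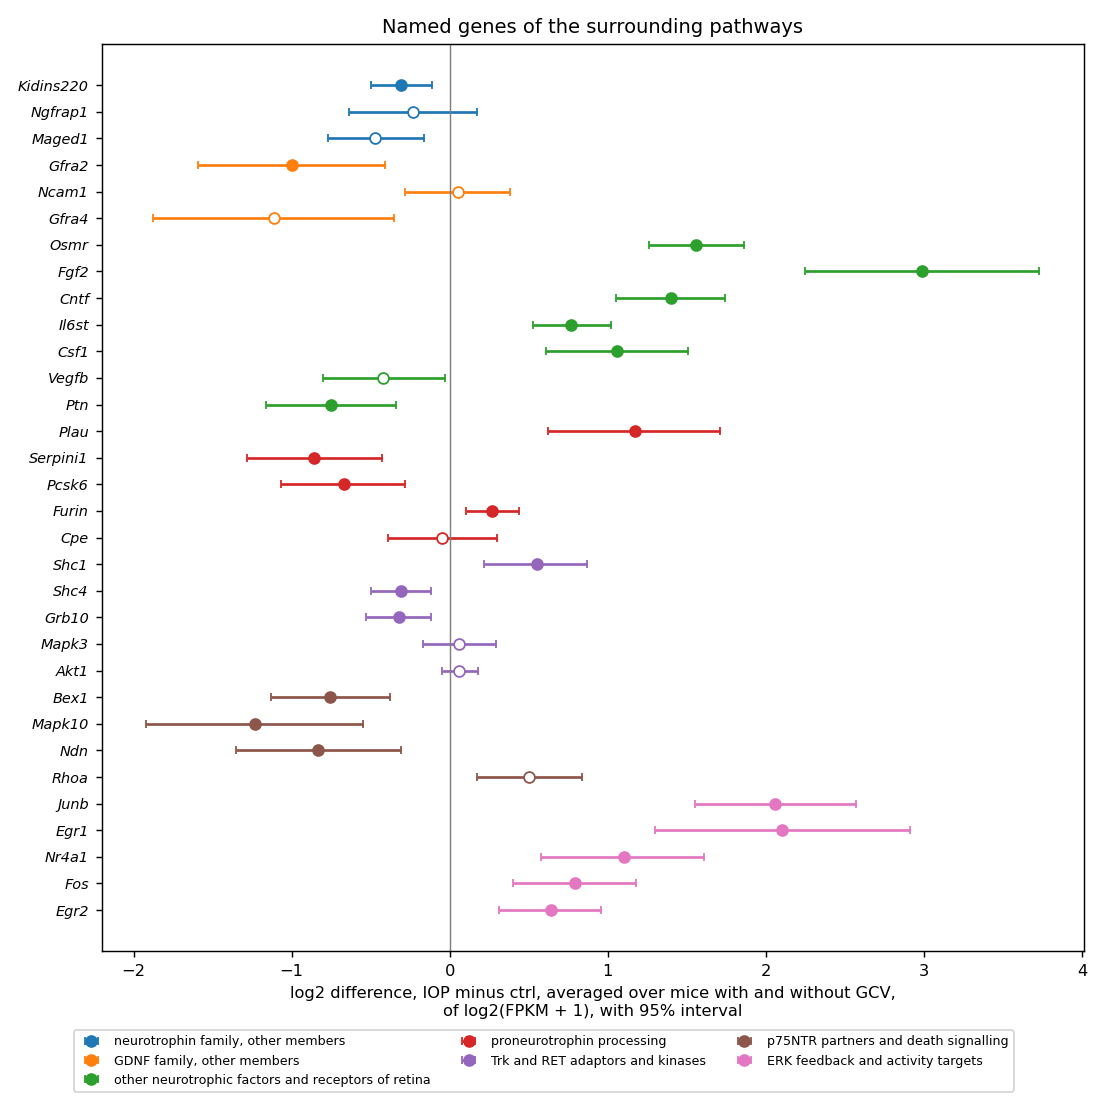
Averaged difference between IOP-treated and control retinas (x axis, log2(FPKM + 1), with 95% interval) for genes of the surrounding pathways named by rule (y axis), filled where limma called the gene with eyes unpaired and open where it did not. Fgf2, Egr1, Junb and Osmr stood farthest to the right, while, of the genes plotted, Mapk10, Gfra4 and Gfra2 stood farthest to the left. Fgf1 (-1.67), Igf2, Cntfr, Lif, Dusp4 and Spred2, which were named after their values had been seen, are not plotted.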

How the data were processed

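RNA was extracted from 12 dissected retinas of 6 mice and sequenced from stranded mRNA libraries. The authors counted read pairs on RefSeq exons with HOMER, and the submitters' processing notes list TopHat2, Bowtie2, Cufflinks, Cuffdiff and the mm10 build. The values the authors deposited are FPKM values for 24340 rows. Their unit was inferred here, since low values step with transcript length and no source names it. No column was left unused (0).

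Differences were tested with limma 3.58.1 in R 4.3.3 on log2(FPKM + 1), with 4 group means, a variance trend and Benjamini-Hochberg adjustment over the 18509 rows above 0 in at least 1 library. The threshold for a call was an adjusted p of 0.05. Rows with a mean of at least 1 FPKM (12910) were used for likeness and pairing. Counts were made with pandas 2.3.3 and numpy 2.4.6, and figures with matplotlib 3.10.9, in Python 3.11.15.

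Depth was estimated from 2243 genes with 1 transcript of 1500 bases or more, less 170 bases for fragment ends, and 81.6% to 87.1% of low values fell within 0.15 of a whole number of fragments. Counts are not in the table, so no counting intervals are given. Differences between replicate mice may include technical spread.

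The eyes of a mouse come from the same animal, so numbers pair samples, and deviations of same-mouse eyes correlated at -0.12, 0.13, 0.21, 0.39, 0.17 and 0.10 in mice 1 to 6. The mouse was a block in an alternative fit. The other settings tried were a filter of 1 FPKM in 3 libraries, a pseudocount of 0.1, only the groups compared, an adjusted p under 0.1, median-ratio scaling, no variance trend and each library left out. Leaving out both eyes of each mouse was added after the data had been seen.

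All 8 genes are named. Of each further list the genes named were the called ones, up to 5 by smallest adjusted p, and the 2 most abundant. For likeness, the 3 genes with the highest r were taken for each gene with a mean of at least 0.5 FPKM. Fgf1, Igf2, Lif, Cntfr, Dusp4, Spred2 and Gfral were named after their values had been seen. A few genes of the lists are not reported here and were left out of the counts of their lists and of the plot of pathway genes. The 8 genes and the lists were chosen with earlier results of these data known. Promoter windows are from RefSeq for mm10, 6 of the 8 genes matched, and exons were masked in the windows of these 6 only. Gene locations are from the GRCm38 annotation.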

Additional observations from a re-analysis of the deposited data

How the results depend on the processing

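The count of the 8 genes called in the averaged comparison, 3, was 0 with the mouse as a replicate block, 6 at an adjusted p under 0.1, 2 with a pseudocount of 0.1 and 4 with the filter of 1 FPKM, and it was 3 with median-ratio scaling or without the variance trend. With 1 library left out it was 0 to 5, and with both eyes of a mouse left out 0 to 6. In the mice without GCV the count was 0 to 3 with a library left out, and in the mice with GCV it was 0 in each such fit. Over all rows, 2258 were called in the averaged comparison, 1351 with the block, 4131 at an adjusted p under 0.1, 2337 with a pseudocount of 0.1, 2645 of the fewer rows left by the filter, 2311 with median-ratio scaling, 2301 without the variance trend and 429 to 4499 with libraries or mice left out. The 306 rows called without GCV became 464 with a pseudocount of 0.1, 185 with only the groups compared, 75 with the block and 607 at 0.1, and the 334 with GCV became 535, 7, 144 and 780. The replicate block changed no call of the 8 genes other than those 3.

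Directions turned in differences that were not called. With a pseudocount of 0.1 the difference of the IOP effect for Bdnf became 0.045, and that of Gdnf in mice with GCV -0.136. When libraries or mice were left out, the log2 difference of Ntf3 was -0.147 to 0.47 without GCV, -0.128 to 0.586 with GCV and -0.01 to 0.362 averaged, and that of Gdnf with GCV was -0.086 to 0.056. The difference of the IOP effect was -0.175 to 0.158 for Bdnf, -0.164 to 0.422 for Ntf3, -0.012 to 0.103 for Gdnf, -0.138 to 0.179 for Ngfr, -0.256 to 0.472 for Gfra1 and -0.661 to 0.285 for Ret. GCV against none in IOP retinas was -0.036 to 0.08 for Gdnf, -0.21 to 0.141 for Ntrk2, -0.146 to 0.172 for Ntrk3, -0.043 to 0.685 for Gfra1 and -0.39 to 0.557 for Ret. The cause of these changes was not tested. With an arm of 3 retinas, and of 2 where a library is left out, small differences in genes under 1 FPKM such as Ntf3 and Gdnf rest on few fragments.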
